A study of Mus musculus with 18 samples.

Results

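The genes described here make up the core of MHC class I antigen presentation in the mouse. They comprise the heavy chains H2-K1, H2-D1 and H2-T23, the light chain B2m, the peptide transporter subunits Tap1 and Tap2, the loading factor Tapbp, the immunoproteasome subunits Psmb8 and Psmb9, and the transactivator Nlrc5. They were chosen by name, because H2-K1 and H2-D1 stood higher in the Kdm2b mutant tables in an earlier look at these data, and each was read from the row carrying its name or a joined name that held it. All 10 were listed in every table, against 23138 named genes in the table of Kdm2b hippocampi and 54429 in that of the cortices.

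RNA-seq of poly(A) RNA covered 18 libraries in 4 tables of FPKM, a level scaled by transcript length and by the mapped fragments of the library. The first table held hippocampi at postnatal day 0 (P0) from 3 control and 3 Kdm2bEmx1-delta-CxxC (cKO) libraries. The second held neurospheres, free-floating cultures of neural progenitors grown from P0 hippocampi with FGF2 and EGF, with 2 control and 2 cKO libraries, and the third held P0 cortices of the same genotypes, 2 against 2. The fourth held P0 hippocampi of Rnf2 controls and Rnf2Emx1-cKO, also 2 against 2. Controls were labelled Kdm2bfl/+ or Kdm2bfl/fl, and Rnf2fl/+ or Rnf2fl/fl, without saying which library was which, so each control group may mix heterozygous and homozygous floxed animals. The cKO lose the exon that encodes the CxxC zinc finger of Kdm2b, or Rnf2, wherever Emx1-Cre acts. That driver is active in progenitors of the dorsal telencephalon and their progeny and leaves microglia, vessels and meninges unrecombined. No source used here says whether libraries came from separate animals, so p-values measure the spread between these libraries, which may be technical.

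MHC class I molecules show peptides from inside the cell at its surface, where CD8 T cells and natural killer cells read them. The proteasome cuts the peptides, the TAP transporter carries them into the endoplasmic reticulum, and tapasin helps load them onto a heavy chain paired with beta-2 microglobulin. Interferons raise the whole set in most tissues, partly through NLRC5, and in the healthy brain levels are low, with roles described in the refinement of synapses. KDM2B recruits a variant Polycomb repressive complex 1 to unmethylated CpG sites through its CxxC finger, and RNF2, also called RING1B, is the catalytic subunit of such complexes.

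Of the 10 genes, 8 lie on chromosome 17 (GRCm38), B2m on chromosome 2 and Nlrc5 on chromosome 8. H2-K1, which encodes a classical heavy chain, spans chr17:33996017-34000333 on the minus strand. H2-D1, the other classical heavy chain, lies at chr17:35262730-35267499 on the plus strand. H2-T23, which encodes the nonclassical heavy chain Qa-1, lies at chr17:36029773-36032855. B2m occupies chr2:122147686-122153083. Tap1 and Psmb9 start head to head, at chr17:34187553-34197225 and chr17:34181988-34187764, and their annotated spans overlap at those starts on opposite strands.

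RefSeq start-site windows of 300 bases (GRCm38.p6, 250 bases before the start and 50 after it) existed for 8 of the members. The windows of H2-K1, H2-D1, B2m and Tap1 are shown because the results turn on these genes. Capitals mark matches, on either strand, to the interferon response element core GAAANNGAA, the kappa B site GGGGATTCC of the class I enhancer, the cyclic AMP response element half-site TGACG and the CCAAT box, read 5′ to 3′ on the strand of the gene.
H2-K1, chr17:34000298-34000597, minus strand: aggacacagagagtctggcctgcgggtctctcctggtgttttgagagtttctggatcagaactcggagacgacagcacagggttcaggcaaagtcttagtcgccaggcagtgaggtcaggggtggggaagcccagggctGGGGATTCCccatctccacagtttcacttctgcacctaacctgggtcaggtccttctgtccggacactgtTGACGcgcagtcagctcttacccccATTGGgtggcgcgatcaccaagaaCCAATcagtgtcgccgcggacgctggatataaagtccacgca
H2-D1, chr17:35262844-35263143, plus strand: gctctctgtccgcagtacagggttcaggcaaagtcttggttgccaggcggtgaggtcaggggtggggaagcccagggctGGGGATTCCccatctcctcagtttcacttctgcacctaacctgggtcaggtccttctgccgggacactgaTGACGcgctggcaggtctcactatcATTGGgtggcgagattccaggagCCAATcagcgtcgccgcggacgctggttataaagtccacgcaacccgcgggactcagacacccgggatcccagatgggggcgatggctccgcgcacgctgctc
B2m, chr2:122147437-122147736, plus strand: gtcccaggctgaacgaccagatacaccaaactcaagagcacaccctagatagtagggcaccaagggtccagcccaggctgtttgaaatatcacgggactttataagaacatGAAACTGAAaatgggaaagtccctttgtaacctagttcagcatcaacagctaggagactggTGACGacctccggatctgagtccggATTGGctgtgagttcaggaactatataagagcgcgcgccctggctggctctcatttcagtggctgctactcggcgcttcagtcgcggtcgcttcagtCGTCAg
Tap1, chr17:34187306-34187605, plus strand: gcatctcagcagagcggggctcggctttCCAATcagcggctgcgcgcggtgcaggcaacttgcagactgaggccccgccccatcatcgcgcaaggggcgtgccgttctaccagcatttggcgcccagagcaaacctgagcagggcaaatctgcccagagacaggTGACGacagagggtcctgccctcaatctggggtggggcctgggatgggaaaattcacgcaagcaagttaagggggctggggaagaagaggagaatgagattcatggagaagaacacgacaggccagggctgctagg

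The windows of the classical heavy chains H2-K1 and H2-D1 aligned over 228 columns, of which 90.4% were identical. That of H2-T23 aligned over 96 columns with H2-K1 (58.3% identical) and 97 with H2-D1 (64.9%), and held neither the kappa B site nor the half-site. H2-K1 and H2-D1 both held the kappa B site 70 bases upstream of the cyclic AMP response element half-site, and that half-site 25 bases upstream of the nearer of 2 CCAAT boxes in opposite orientation. The kappa B site occurred in 0.25% of all 32851 windows, the half-site in 20.8%, the CCAAT box in 37.4% and the interferon core in 8.56%. Among the members the kappa B site was found in H2-K1 and H2-D1 and the interferon core in B2m and H2-T23, while 5 members held the half-site and 7 the CCAAT box. A match describes letters and not a bound site. Only the spelling given above was searched for each element, on either strand. Other forms, such as other arrangements of the interferon element, would have been missed. The lack of an interferon core match in H2-K1 and H2-D1 therefore does not show that they lack such an element. The windows of Tap1 and Psmb9 shared 275 bases. CpG dinucleotides, the sites bound by CxxC fingers, numbered 19 in the H2-D1 window, 17 in Psmb9, 15 in Tap1, 14 in H2-K1 and 14 in B2m. Tapbp and Psmb8 held 11 each and H2-T23 held 5, against a median of 7 over all windows. Of all windows, 71.9% held fewer than H2-D1, 63.7% fewer than H2-K1 and 38.0% fewer than H2-T23, so these counts were not extreme.

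Levels differed by orders of magnitude among the members. In control hippocampi of the Kdm2b table B2m stood at 30.9 ± 6.08 FPKM (SD, n = 3), above H2-D1 at 12.7 ± 1.33 and H2-K1 at 4.48 ± 0.65. H2-T23, Tap1, Psmb8 and Tap2 followed between 1.95 and 1.28 FPKM, and neighbours within these 4 overlapped in their libraries. Psmb9 was lower, at 0.33 ± 0.20 FPKM, and Nlrc5, the transactivator that binds class I promoters, was close to absent at 0.066 FPKM. Tapbp read 45.9 ± 3.85 FPKM, but its row also carried Daxx, Rgl2 and Zbtb22 and so is not a level of Tapbp alone. In cortices, where Tapbp had its own row, it stood at 4.75 ± 0.057 FPKM (n = 2).

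**Figure D1:**
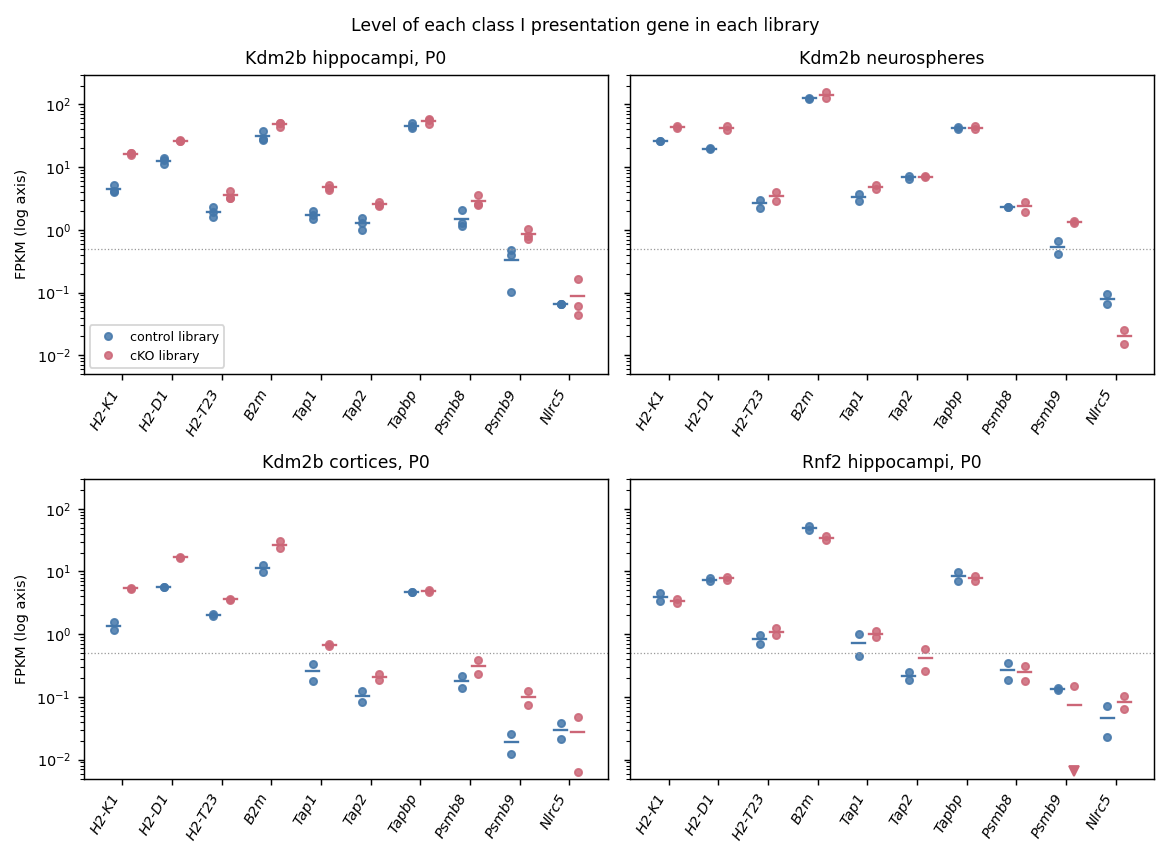
Level of each class I presentation gene in FPKM (log axis) in each library of the 4 tables, with control libraries in blue, cKO libraries in red and a bar at the mean. The dotted line marks 0.5 FPKM, the triangle marks a library listed at 0, and H2-K1 in Kdm2b hippocampi sat between 4.05 and 5.23 FPKM in controls and between 15.8 and 17.1 in cKO. Tables were normalized separately, so heights are compared within a panel.

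In control neurospheres B2m, H2-K1 and Tap2 read higher than in control hippocampi of the other table, although tables were normalized separately and no test was made across them. B2m read 124 and 129 FPKM in the control neurospheres, H2-K1 26.6 and 25.9, and H2-D1 19.3 and 20.0. Tap2 reached 7.20 and 6.56 FPKM. In control cortices H2-K1 read 1.58 and 1.15 FPKM, and 5 members (Tap1, Tap2, Psmb8, Psmb9 and Nlrc5) averaged under 0.5 FPKM over that table's 4 libraries. Values under 0.5 FPKM were left out of the fits, which left 9, 9, 5 and 6 members in Kdm2b hippocampi, neurospheres, cortices and Rnf2 hippocampi.

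The first comparison asked how the pathway stood in hippocampi that developed without the CxxC finger of KDM2B. Class I heavy chains were higher in all 3 cKO libraries. Because this contrast was used to choose the genes, its member values are a description without a test. H2-K1 measured 5.23, 4.05 and 4.17 FPKM in the controls and 16.6, 17.1 and 15.8 in the cKO. Its groups stood far apart, with a ratio of means of 3.68 and a log2 fold change on the log2(FPKM + 1) scale of 1.68 ± 0.093 (SE), a scale that understates the change of low genes. H2-D1, read from a row joined with the haplotype-specific gene H2-L, measured 13.9, 11.2 and 12.8 FPKM in controls and 26.8, 26.6 and 26.4 in cKO. The cKO libraries of H2-D1 lay within 0.207 FPKM of each other (SD), and the log2 fold change was 1.02 ± 0.075. H2-T23 gave 1.62, 2.30 and 1.94 FPKM against 3.27, 3.24 and 4.25, a log2 fold change of 0.63 ± 0.13 with no overlap.

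The light chain and the transporter subunits stood higher too. B2m, the invariant light chain that every class I molecule needs to reach the surface, gave 37.9, 26.7 and 28.2 FPKM in controls and 43.4, 51.3 and 50.3 in cKO. The lowest cKO library lay above the highest control, and the log2 fold change was 0.64 ± 0.12. Tap1 gave 1.71, 2.04 and 1.48 FPKM against 5.27, 4.69 and 4.28 and a log2 fold change of 1.07 ± 0.11, next to that of H2-K1. Its partner subunit Tap2 gave 1.00, 1.28 and 1.56 FPKM against 2.82, 2.52 and 2.41, at 0.66 ± 0.12. The groups of both transporter subunits stood clear of each other. The joined row holding Tapbp gave 49.8, 42.1 and 45.8 FPKM against 55.7, 57.7 and 48.0, and here a cKO library fell below the highest control.

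The immunoproteasome subunits replace the constitutive catalytic subunits after interferon exposure and change which peptides are cut. Psmb8 gave 2.10, 1.27 and 1.14 FPKM in controls and 2.52, 3.60 and 2.56 in cKO, a log2 fold change of 0.65 ± 0.17. Psmb9 gave 0.102, 0.403 and 0.478 FPKM against 0.795, 1.04 and 0.714, at 0.49 ± 0.15 on this scale. Its mean was 0.33 FPKM in controls and 0.85 in cKO, so it passed the 0.5 FPKM filter only through the cKO libraries. Its place among the tested and called members counted below rests on that. Psmb9 is the member whose size rested most on the scale, reaching 1.27 with a pseudocount of 0.1, and without control replicate 1, its lowest library, it went to 0.36 and off the call rule. Nlrc5 stayed at 0.0665, 0.0664 and 0.0650 FPKM in controls and 0.0435, 0.0621 and 0.163 in cKO, under the filter and overlapping. Of the 9 members over the filter, 8 passed the call rule (log2 fold change over 0.4 in size and unadjusted p under 0.05 in limma), all higher, and the same 8 had every cKO library above every control. Over all 13446 genes of the hippocampal fit 3.89% were called higher and 14.9% had every cKO library above, but nothing is read from these counts here because the contrast chose the genes.

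**Figure D2:**
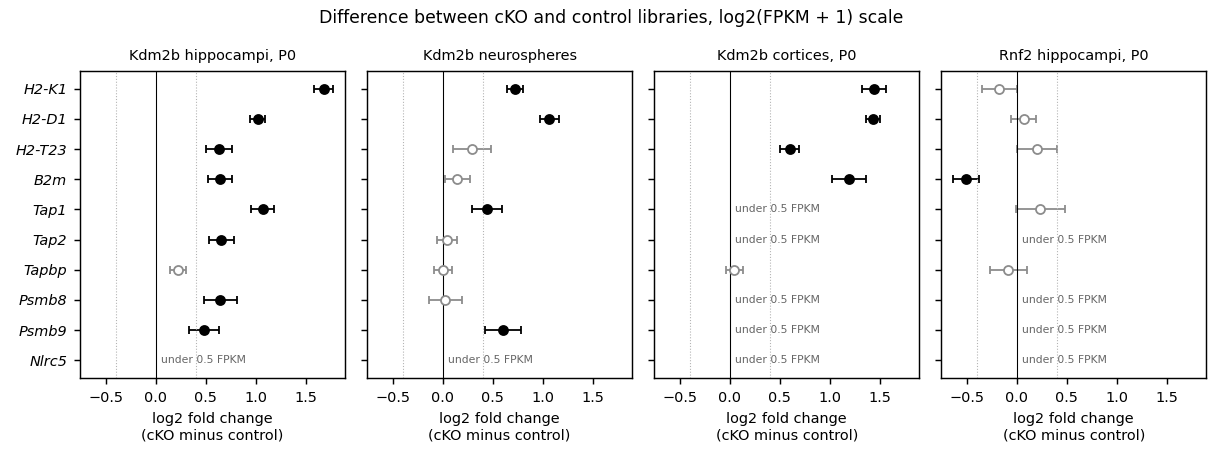
Log2 fold change of each member (cKO minus control, log2(FPKM + 1) scale) with its standard error in the 4 tables. Filled points passed the call rule, open points did not, and dotted lines mark 0.4 in either direction. H2-K1 and H2-D1 lay at 1.68 and 1.02 in Kdm2b hippocampi, 0.72 and 1.06 in neurospheres and 1.44 and 1.43 in cortices, and at -0.18 and 0.066 in Rnf2 hippocampi.

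Microglia express class I genes and were not recombined, and their markers moved with the hippocampal result. The summed level of 12 microglial markers was 103 to 116 FPKM in controls and 129 to 164 in cKO. Of the 12, 11 had a positive change and 7 were called higher, where 3.89% of all genes were. The 7 included the complement genes C1qa (log2 fold change 0.43), C1qb (0.56) and C1qc (0.41). An adjusted p under 0.05 in limma was reached by 4 of the 12. P2ry12 and Tmem119, 2 defining markers, changed by 0.053 and -0.025. Endothelial markers summed to 107 to 135 FPKM in controls and 107 to 127 in cKO, and lymphocyte markers to at most 0.351 FPKM in any library. Neural progenitor markers summed to 232 to 269 FPKM in controls and 317 to 358 in cKO, with Nes, Vim and Pax6 of the 5 called higher. Choroid plexus markers summed to 5.47 to 16.8 FPKM against 7.17 to 59.8, with Ttr and Clic6 called higher. All 5 progenitor markers had an adjusted p under 0.05 in limma, and none of the 3 tested choroid plexus markers did. The part of these cell types in the class I values was not tested. In bulk tissue, more cells of a type and more RNA per cell cannot be told apart.

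In neurospheres the 2 classical heavy chains were again higher, and most of the presentation machinery lay within the spread of its libraries. The values are a description here too, since this table was among those that chose the genes. H2-K1 measured 26.6 and 25.9 FPKM in controls and 42.8 and 45.2 in cKO, with a log2 fold change of 0.72 ± 0.079. H2-D1 measured 19.3 and 20.0 FPKM against 39.5 and 45.2, at 1.06 ± 0.095. H2-D1 thus lay below H2-K1 in control neurospheres and overlapped it in cKO neurospheres. Tap1 gave 2.92 and 3.72 FPKM against 4.45 and 5.25, at 0.44 ± 0.15. Psmb9 gave 0.664 and 0.406 FPKM against 1.27 and 1.37, at 0.60 ± 0.18. For these 4 genes both cKO libraries were above both controls.

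The other members over the filter overlapped between genotypes. H2-T23 gave 3.03 and 2.25 FPKM in controls and 4.06 and 2.86 in cKO, and B2m 124 and 129 against 155 and 126. B2m was therefore set by a single cKO library: its log2 fold change of 0.15 ± 0.12 went to -0.0042 without cKO replicate 1. Tap2 stayed between 6.56 and 7.20 FPKM in all 4 libraries, and the joined Tapbp row between 40.4 and 44.5. Psmb8 gave 2.28 and 2.28 FPKM against 1.96 and 2.78. Nlrc5, under the filter, gave 0.0656 and 0.0940 FPKM in controls and 0.0251 and 0.0150 in cKO, with both cKO libraries below both controls at levels too low to fit. In all, 4 of 9 members passed the call rule, all higher, where 11.4% of 12227 genes did and 32.1% had both cKO libraries above both controls.

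Most markers of cell types outside the neural lineage were low in the cultures. Averages under 0.5 FPKM were found for 10 of 12 endothelial, 7 of 8 meningeal fibroblast, 5 of 6 other macrophage and 5 of 6 pericyte markers. The pericyte sum, 55.6 to 62.2 FPKM in controls and 37.7 to 37.9 in cKO, rested mainly on Cspg4. Of 12 microglial markers, 11 averaged under 0.5 FPKM and Aif1, Trem2 and Fcrls were at 0 in all 4 libraries. The cKO replicate 1 library did list C1qb at 0.530 FPKM and the class II chaperone Cd74 at 5.65 FPKM, genes at 0 in both controls. Without that library H2-K1 changed by 0.76 and H2-D1 by 1.16, and without the other cKO library by 0.68 and 0.97. Control replicate 1 also stood apart, with 29.3% of its FPKM in rows without a gene name against 0.876% to 1.95% in the others. Without it Tap1 went to a log2 fold change of 0.31, off the call rule, as it did without cKO replicate 2 (0.34), and Psmb9 went off it without control replicate 2 (0.48). Rescaling the neurosphere libraries to 1 FPKM total moved the median of all genes by 0.105 and put H2-K1 at 0.84 and H2-D1 at 1.18.

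Cortices showed a heavy chain difference as large as that of hippocampi. H2-K1 measured 1.58 and 1.15 FPKM in controls and 5.31 and 5.52 in cKO, from 91 and 64 reads against 272 and 269. The groups stood apart, with a ratio of means of 3.96 and a log2 fold change of 1.44 ± 0.12. H2-D1 measured 5.60 and 5.56 FPKM against 16.8 and 16.6, at 1.43 ± 0.071, and here the row carried H2-D1 alone. H2-T23 gave 1.93 and 2.13 FPKM against 3.47 and 3.70, at 0.60 ± 0.096. B2m gave 9.71 and 12.7 FPKM against 30.1 and 23.6, at 1.19 ± 0.17, with clear separation in each case. Tapbp, in a row of its own, gave 4.79 and 4.71 FPKM against 5.11 and 4.75, at 0.045.

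The low members of the cortical table rested on few reads. Whole reads could be recovered from the values in this table and in that of Rnf2. Tap1 had 22 and 39 reads in controls and 70 and 71 in cKO, or 0.182 and 0.335 FPKM against 0.651 and 0.693. Tap2 had 7 and 10 reads against 17 and 13, and Psmb8 13 and 8 against 21 and 12. Psmb9 had 1 and 2 reads against 9 and 5. Nlrc5 had 4 and 7 against 8 and 1, and its groups overlapped. Of the 5 members over the filter 4 passed the call rule, all higher, against 4.73% of 15691 genes, and the same 4 had both cKO libraries above both controls, against 22% of all genes. These shares too come from a contrast that chose the genes.

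Cell type markers differed far more between cortical groups than between hippocampal ones. Markers of meningeal fibroblasts summed to 1.44 to 2.49 FPKM in control cortices and 26.7 to 44.1 in cKO, with 8 of 8 called higher. Macrophage markers other than microglial ones summed to 0.286 to 0.437 FPKM against 11.2 to 19.2, led by Mrc1, Lyve1 and Pf4. With control sums this low, most of the tested markers of both lists passed the 0.5 FPKM filter through the cKO libraries. Counts of calls among them therefore lean towards higher and are no separate support. Microglial markers summed to 27.5 to 32.5 FPKM against 42.3 to 51.1, with 5 of 11 called higher. Endothelial markers summed to 41.7 to 43.1 FPKM against 65.1 to 67.2, with 3 of 10 called higher. Of all genes in cortices 4.73% were called higher, and no microglial or endothelial marker there had an adjusted p under 0.05 in limma. All these cell types carry class I molecules. How much of the cortical heavy chain difference came with them was not tested, and the amount of meninges in the samples and genotype cannot be told apart in this table.

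**Figure D3:**
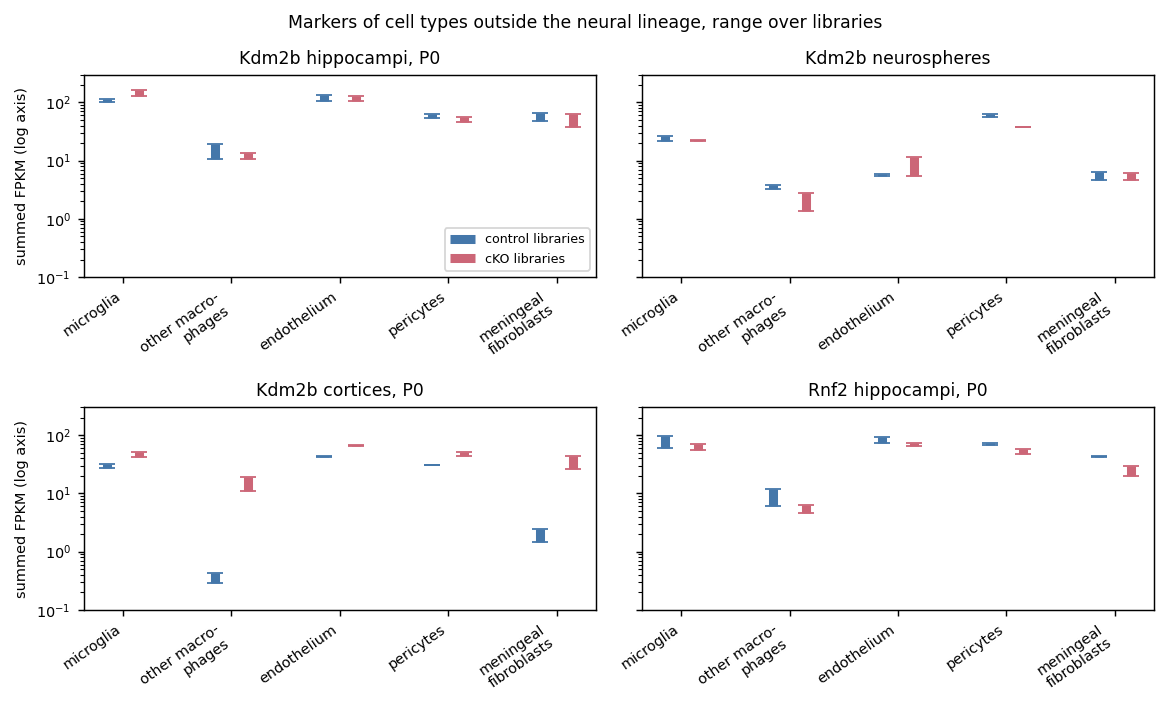
Summed FPKM (log axis) of marker genes of 5 cell types that Emx1-Cre does not recombine, as the range over control libraries (blue) and cKO libraries (red) in the 4 tables. Meningeal fibroblast markers ranged from 1.44 to 2.49 in control cortices and from 26.7 to 44.1 in cKO cortices, and from 48.2 to 65.2 against 37.5 to 62.6 in Kdm2b hippocampi. In neurospheres 11 of the 12 microglial markers and 5 of the 6 pericyte markers averaged under 0.5 FPKM. The pericyte sum there rested mainly on Cspg4 and is not read as a level of pericytes.

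Rnf2 hippocampi were not used to choose the genes, so members were tested there. The classical heavy chains did not pass. H2-K1 measured 4.51 and 3.35 FPKM in controls and 3.09 and 3.60 in cKO, from 133 to 176 reads a library. The groups overlapped, and the log2 fold change was -0.18 ± 0.17 with a 95% interval of -0.605 to 0.254 (limma, adjusted p = 0.833). H2-D1 measured 7.83 and 6.98 FPKM against 8.26 and 7.33, at 0.066 with an interval of -0.257 to 0.388 (adjusted p = 0.932). With a library left out, H2-K1 ranged from -0.35 (without control replicate 2) to -0.0051 (without control replicate 1), and H2-D1 from -0.010 (without cKO replicate 1) to 0.14 (without cKO replicate 2), with neither called. In Kdm2b hippocampi the same genes lay at 1.68 and 1.02, in a contrast that chose them and in a table normalized separately. The intervals are therefore not set against those values, and the difference between the mutants was not tested.

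B2m was the exception among the tested members. It measured 52.2 and 46.1 FPKM in the controls and 31.6 and 37.2 in the cKO, from 672 and 617 reads against 449 and 517. Both cKO libraries lay below both controls, the opposite order to the Kdm2b hippocampi, with a log2 fold change of -0.51 ± 0.13 and an interval of -0.832 to -0.18. It passed the call rule (unadjusted p = 0.00953) but not an adjustment over all genes (adjusted p = 0.624, limma), and without cKO replicate 1 it went to -0.39 and was no longer called. H2-T23 gave 0.972 and 0.690 FPKM against 0.964 and 1.24, at 0.20 with an interval of -0.308 to 0.709 (adjusted p = 0.844). Tap1 gave 1.03 and 0.446 FPKM against 0.906 and 1.13, at 0.24 with an interval of -0.372 to 0.842 (adjusted p = 0.845). Tapbp gave 9.86 and 7.04 FPKM against 8.59 and 7.09, at -0.085 with an interval of -0.55 to 0.38 (adjusted p = 0.943). These 3 overlapped between genotypes. With a library left out, H2-T23 ranged from 0.089 to 0.31, Tap1 from -0.0078 to 0.48 and Tapbp from -0.30 to 0.13, the ends being reached without control replicate 2 and without control replicate 1.

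Below the filter in this table were Tap2 with 14 and 11 reads in controls and 16 and 35 in cKO, Psmb8 with 14 and 8 against 14 and 8, Psmb9 with 7 and 8 against 9 and 0, and Nlrc5 with 9 and 3 against 9 and 14. A change in these could not be measured at this depth. Over 15764 genes, 2.86% were called higher and 1.85% lower, 19.5% had both cKO libraries above both controls and 18.7% had both below. The members gave 0 higher and 1 lower of 6 by unadjusted p, and 0 by adjusted p (limma), and limma-voom on the recovered reads called the same number, 1. Beside B2m, markers of meningeal fibroblasts were lower in Rnf2 cKO, with sums of 42.0 to 43.1 FPKM in controls and 19.9 to 29.1 in cKO. By the call rule 5 of these 8 were lower, but none had an adjusted p under 0.05 in limma. Pericyte markers summed to 67.2 to 72.1 FPKM against 47.8 to 57.1, and microglial ones to 59.5 to 97.8 against 55.2 to 69.3 with none of the 12 called. Their part in the B2m value was not tested.

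The targeted genes bore little on the labels at this level. Kdm2b read 29.4 ± 2.15 FPKM in control and 27.2 ± 0.99 in cKO hippocampi (log2 fold change -0.10, limma adjusted p = 0.364), 22.1 against 23.1 in neurospheres and 16.3 against 14.8 in cortices. Rnf2 in its own mutant read 31.5 ± 1.02 FPKM against 28.1 ± 0.494 (log2 fold change -0.16, limma adjusted p = 0.762). The tables give whole genes, so the removed exons cannot be read apart and these values check the labels only weakly.

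Other genes of the pathway were taken from lists of class I relatives, loading factors, proteasome subunits, regulators, class II genes and interferon genes, 87 names in all. In Kdm2b hippocampi 6 of the 56 over the filter were called higher and none lower, against 3.89% and 2.25% of all genes. The median log2 fold change of the 56 was 0.0636, against 0.00837 over all genes tested. Further class I heavy chains led them. H2-Q4, a nonclassical heavy chain, rose from 1.96, 2.59 and 2.27 FPKM to 5.52, 5.03 and 4.24 (log2 fold change 0.86 ± 0.12, limma adjusted p = 0.00502). H2-T22, a nonclassical chain read together with H2-T9, rose by 0.51 ± 0.11 (adjusted p = 0.0245). Cd1d1, which presents lipids to natural killer T cells, rose by 0.56 ± 0.10 (adjusted p = 0.0136). H2-Q7 (0.61), the class II chain H2-Ab1 (0.46) and the interferon-induced GTPase Irgm1 (0.46) passed the call rule with adjusted p of 0.0646, 0.121 and 0.0878.

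In neurospheres 2 of 59 genes of the same lists were called higher, H2-Q7 (1.32 ± 0.19, limma adjusted p = 0.00764) and H2-Q4 (0.45 ± 0.15, adjusted p = 0.0852), and 13 were called lower, against 11.4% and 13.2% of all genes. The median of the 59 was -0.0781, against -0.0113 over all genes tested. H2-Q7 rose from 1.79 and 1.88 FPKM to 4.93 and 7.46. Among those that fell was Irf1, an interferon-induced activator of class I promoters, from 11.4 and 9.71 FPKM to 5.60 and 5.28 (log2 fold change -0.84 ± 0.11, adjusted p = 0.0064). Ifitm3, an interferon-induced antiviral membrane protein, fell from 16.3 and 13.1 FPKM to 1.19 and 3.19 (-2.37 ± 0.30, adjusted p = 0.00563). Fcgrt, the class I-like neonatal Fc receptor, fell from 5.45 and 4.33 FPKM to 0.623 and 0.221 (-2.06 ± 0.20, adjusted p = 0.00257). Mr1, Hfe, Tapbpl, Rfxank, Ciita, Irf9, Ifit3, Ifi27, Rtp4 and Irgm1 were the other 10 called lower. Rescaling to 1 FPKM total changed the split from 2 higher and 13 lower to 5 and 10. Astrocyte markers, which summed to 804 to 841 FPKM in controls and 467 to 496 in cKO with 5 of 6 called lower, moved with these genes, and their part was not tested.

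In cortices 6 of 44 were called higher and none lower by the call rule, against 4.73% and 2.28%, and 0 of 44 passed an adjusted p under 0.05 in limma. They were H2-Q4 (log2 fold change 0.66), Fcgrt (1.16), Ifngr1 (0.51), Ifi27 (0.65), Bst2 (1.01) and Ifitm3 (1.32), in the same libraries in which the meningeal markers rose. In Rnf2 hippocampi 1 of 52 was called higher, Isg15 (0.55, limma adjusted p = 0.69), and 2 lower, Ifi27 (-1.01, adjusted p = 0.533) and Ifitm3 (-0.45, adjusted p = 0.658). H2-Q4 measured 1.39 and 0.743 FPKM in Rnf2 controls and 0.839 and 1.21 in cKO.

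The interferon ligands Ifng and Ifnb1 were listed at 0 in every library of all 4 tables. Of 28 interferon response genes, 14 passed the filter in Kdm2b hippocampi and 1 was called higher, where 3.89% of all genes were. In neurospheres 6 of 14 were called lower, where 13.2% of all genes were, and in cortices 3 of 9 were called higher, where 4.73% were. The constitutive catalytic subunits Psmb5, Psmb6 and Psmb7, which the immunoproteasome subunits replace, gave no call in any table, with log2 fold changes between -0.36 and 0.19. Transcription factors of class I promoters gave no call in Kdm2b hippocampi, where Irf1 changed by 0.36 and Irf2 by 0.37. Their changes spread from -0.15 to 0.37 over the 10 factors.

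**Figure D4:**
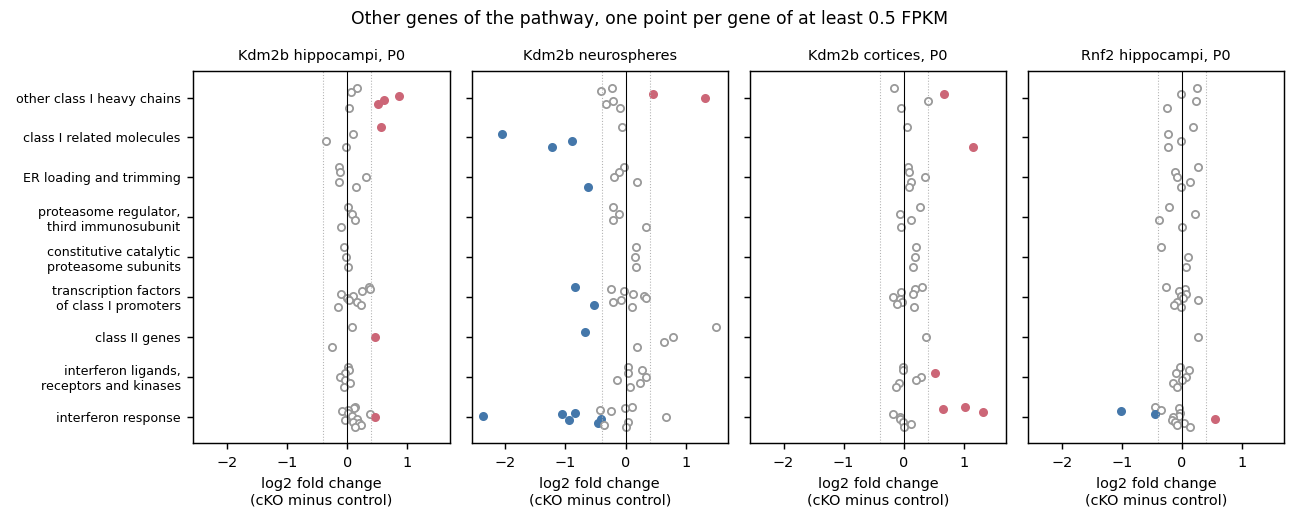
Log2 fold change (cKO minus control, log2(FPKM + 1) scale) of the other pathway genes by list in the 4 tables, with a point for each gene of at least 0.5 FPKM, red where called higher, blue where called lower and open where not called. Red points lie in the list of other class I heavy chains in all 3 Kdm2b tables, and blue points in 5 of the lists in neurospheres. In that heavy chain list 6 of 6 tested genes had a positive change in Kdm2b hippocampi, but only 2 of 7 in neurospheres and 2 of 4 in cortices.

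The members of chromosome 17 lie within a gene-dense stretch of it, and their neighbours were read for comparison. Between the outermost members, chr17:33915899-36032855, 66 other genes were tested in Kdm2b hippocampi. Of these 7 were called higher (10.6%) and 2 lower, against 4.69% higher of 533 genes on the rest of the chromosome. With every other gene whose name starts with H2- also left out, class I heavy chains and the class II gene H2-Ab1 among them, 4 of 61 (6.56%) were called higher. In neurospheres 18.5% of 65 neighbours were called higher against 10.9% on the rest of the chromosome, in cortices 5.62% of 89 against 5.56%, and in Rnf2 hippocampi 6.25% of 80 against 3.34%. The shares called lower were 3.03% against 1.88% in Kdm2b hippocampi, 6.15% against 11.5% in neurospheres, 5.62% against 1.05% in cortices and 2.5% against 1.97% in Rnf2 hippocampi.

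**Figure D5:**
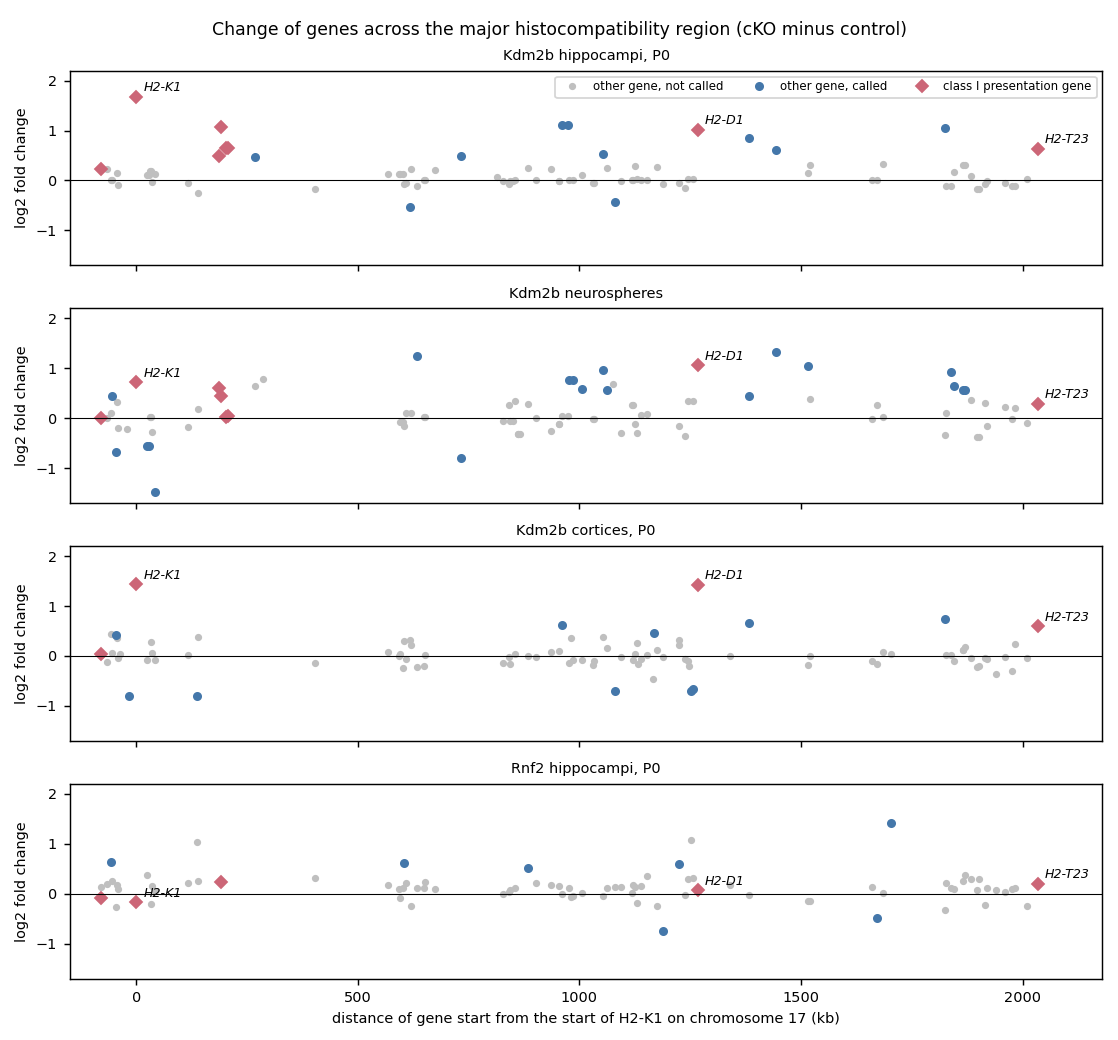
Log2 fold change (cKO minus control, log2(FPKM + 1) scale) of each tested gene between the outermost members on chromosome 17, by the distance of its start from that of H2-K1 in kb. Start here means the lowest coordinate of a gene, whatever its strand. Red diamonds are members, blue points other genes that passed the call rule and grey points the rest. H2-K1 and H2-D1 stand at 1.44 and 1.43 in cortices, while the median of the 89 other genes there was -0.012.

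Among genes tested in all 4 tables, likeness to a member was measured as Pearson's r over the 18 libraries, on each library's difference from the control mean of its table. Those closest to H2-K1 among 9604 genes were Stc2 (r = 0.968), Stard10 (0.949), Ppm1m (0.948), H2-Q4 (0.935) and Sft2d2 (0.933). Those closest to H2-D1 were Pth1r (0.978), Chrna4 (0.970), Erbb2 (0.956), Tmem8 (0.951) and Tuft1 (0.946). Among the members, r with H2-K1 was 0.910 for H2-D1, 0.859 for Tap1, 0.839 for B2m and for H2-T23, and -0.0057 for Nlrc5. These points share libraries and the split into genotypes, so r is a description of these libraries only.

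Heavy chain genes resemble each other, and reads can be split between them. Of the 100-base words of the longest coding H2-K1 transcript none occurred in a transcript of another gene (GENCODE vM21), whereas 4.64% of those of H2-D1, 7.28% of H2-T23 and 16.4% of H2-Q7 did. For H2-Q4 the share was 2.66%. Values of H2-D1, H2-T23, H2-Q7 and H2-Q4 therefore carry that uncertainty. Only exact words of the reference transcripts were counted, so near matches and differences between mouse strains were missed. The lack of a shared word therefore does not show that H2-K1 is free of it. In Kdm2b hippocampi a second, lower H2-D1 row was left out, and adding the rows of a name together kept the count of called members at 8.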

How the data were processed

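FPKM values per gene were deposited by the authors for 18 poly(A) RNA-seq libraries in 4 tables. Per the methods, hippocampal and neurosphere reads were trimmed with cutadapt and aligned with STAR to mm10, and Cufflinks (2.2.1 in the submitters' processing notes) gave the FPKM. The pipeline of the cortical and Rnf2 tables, which carry GRCm38 coordinates and gene lengths, was not given in the sources used here. Strand is not stated, so overlapping genes on opposite strands cannot be told apart. Tables were normalized separately and each was fitted by itself. No per-sample column was left out.

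Where several rows carried a name, that with the highest mean was used. Joined names hold several genes. Of the low values checked in the cortical and Rnf2 tables, 100% were whole multiples of a single read (within 0.05 reads), which implied 18699297 to 22036848 mapped reads per library (cortices) and 14962620 to 16524358 (Rnf2). The depth of the other tables is unknown.

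Rows averaging 0.5 FPKM or more over a table's libraries entered limma 3.58.1 (R 4.3.3, eBayes with trend) on log2(FPKM + 1), over all genes of a table, without covariates. The call rule took the study's thresholds, a log2 fold change beyond 0.4 in either direction with an unadjusted p below 0.05, with Benjamini-Hochberg adjusted p beside it. The fit was tested on simulated data. The rule for named genes took the 10 members, the targeted genes, the pathway genes called in a table and the 5 genes most like H2-K1 and H2-D1. Marker genes, and the pathway genes named without a call, were chosen after their values were seen. The members and all lists were chosen with earlier results of these data known. Replicate numbers were shared between groups, but deviations of same-numbered libraries correlated at 0.0491, -0.103 and -0.0858 in Kdm2b hippocampi, -0.277 in neurospheres, -0.0528 in cortices and 0.161 in Rnf2 hippocampi, and were not taken as pairs. Alternatives changed the pseudocount, filter, scaling, trend, block and thresholds, left out each library, or used limma-voom on recovered reads. The values of 1 further marker gene are not reported here.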

Additional observations from a re-analysis of the deposited data

How the results depend on the processing

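Over the 29 log2 fold changes of members and 371 alternative values, 10 changed sign. None of these was of a member that passed the call rule in the same table. The counts of called members (8 in Kdm2b hippocampi, 4 in neurospheres, 4 in cortices, 1 in Rnf2 hippocampi) were 8, 4, 4 and 1 with the replicate block, and the counts of other pathway genes went from 6, 15, 6 and 3 to 6, 16, 6 and 4. Crossing the numbers in neurospheres, chosen after seeing the data, gave 4 members and 16 other genes. Member counts in the Kdm2b tables describe the contrasts that chose the genes and show no stability. Requiring an adjusted p under 0.05 left 0 members in Rnf2 hippocampi, and 3, 0 and 0 other pathway genes in Kdm2b hippocampi, cortices and Rnf2 hippocampi. Members in the Kdm2b tables are not counted this way, because those contrasts chose them. Without a fold change threshold the other pathway genes numbered 16 in Kdm2b hippocampi, 24 in neurospheres and 5 in Rnf2 hippocampi, and limma-voom gave 1 in the last. With each library left out in turn, members ranged from 0 to 1 in Rnf2 hippocampi, at 0 without cKO replicate 1. Other pathway genes ranged from 5 to 10 in cortices, at 10 without control replicate 1, and from 1 to 5 in Rnf2 hippocampi, at 1 without control replicate 1 or cKO replicate 1 and at 5 without control replicate 2. B2m in Rnf2 hippocampi ranged from -0.62 to -0.39. With 2 libraries a group and few reads for Psmb8, Psmb9, Tap2 and Nlrc5, depth limited what could be seen of these in cortices and Rnf2 hippocampi.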
